A study of Mus musculus with 4 samples.

Results

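S100 proteins, galectins and annexins are small or membrane-binding proteins. Here 10 of their genes are described in regulatory T (Treg) cells with and without the transcription factors Tcf1 and Lef1. The genes are S100a4, S100a6, S100a10, S100a11, Lgals1, Lgals3, Anxa1, Anxa2, Anxa5 and Anxa6. They were chosen by name, with earlier results of these data known. All 10 were found among the 24346 gene rows of the deposited table. RNA was sequenced from Thy1.2+ CD4+ spleen cells sorted for the Foxp3-Cre-GFP reporter, which marks Foxp3-expressing Treg cells, from male mice aged 16 weeks. Every mouse carried the Foxp3-Cre, so the Cre was shared by both groups. The 2 WT libraries came from mice with wild-type Tcf1 and Lef1, and the 2 dKO libraries from mice in which both were floxed and whose cells are labelled Tcf1-/-Lef1-/-. A Foxp3-driven Cre is meant to delete in cells that have switched on Foxp3. Whether deletion was confined to those cells was not tested. Columns name the libraries WT_0 and WT_1, dKO_0 and dKO_1, and paired values below put suffix 0 first. The labels do not say whether a group's libraries are from different animals, so each p-value covers library spread that may be purely technical.

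S100 proteins are EF-hand proteins that change shape on binding calcium and then dock onto partners such as annexins, myosin and cytoskeletal proteins. Annexins bind negatively charged membrane lipids in the presence of calcium, and S100 proteins tie some of them into complexes on the inner face of the membrane. Galectins bind beta-galactoside sugars on surface glycoproteins, and galectin-1, the product of Lgals1, is one of the molecules through which Treg cells are known to restrain other T cells. Several of these genes are commonly high in activated and memory T cells.

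Estimated depth was 19000000 to 24900000 fragments, with WT_0 the shallowest, and 11396 to 11611 rows reached 1 FPKM (the authors' fragment counts per kilobase of transcript, relative to all mapped fragments). Tcf7, the gene of Tcf1, had 345.0 and 309.1 FPKM in the WT libraries and 246.9 and 249.6 in the dKO libraries, and Lef1 had 59.9 and 66.5 against 41.3 and 36.0. These sums over all exons do not measure the deletion itself. The defining T and Treg cell markers, Cd3d, Cd3e, Cd3g, Cd4, Thy1, Lck, Foxp3, Il2ra, Ctla4 and Ikzf2, were present in every library. They summed to 2766 and 2713 FPKM in WT and 2882 and 2831 in dKO, with 7 of 10 higher and 3 lower in dKO. Marker lists of other cells were also above 0 in every library. Monocyte and macrophage markers summed to 824.0 and 1012 FPKM in WT and 729.2 and 689.1 in dKO, with 19 of 20 lower in dKO. Neutrophil granule and surface markers summed to 137.8 in WT_0 and 38.6, 29.5 and 46.8 in WT_1, dKO_0 and dKO_1. B cell markers summed to 150.1, 54.0, 145.7 and 218.3 FPKM in the same order of libraries, with 12 of 12 tested members lowest in WT_1. Plasma cell markers were lower in 6 of 6, with the highest sum, 345.7 FPKM, in WT_0 and the lowest, 146.0, in dKO_1, and NK cell markers summed to 52.6 and 66.7 against 38.2 and 50.2. Dendritic cell markers summed to 130.3 to 166.4 FPKM, mostly through the interferon-inducible gene Bst2, erythroid and platelet markers to 14.9 to 78.1, and the CD8 genes Cd8a and Cd8b1 to 8.21 to 10.1. Limma called 0 markers of any of these lists, or 1, Bst2, with small RNA rows left out. Lower without adjustment at p under 0.05 were 10 of 20 macrophage, 4 of 6 plasma cell and 5 of 8 NK cell markers tested. Among markers of all the lists, Foxp3, Retnlg, Bst2 and Eomes were higher. Of all rows tested, 7.08% were lower and 9.64% higher at that threshold. In sorted bulk cells, fewer cells of a type and less RNA per cell cannot be told apart.

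The largest differences among the 10 genes were those of S100a4, S100a6 and Lgals1, each about 1 on the log2 scale higher in dKO, followed by S100a10. Of the 10, 7 had a higher and 3 a lower mean in dKO. In 6 genes both dKO libraries lay above both WT libraries, where 27.8% of all rows tested did, and in 2 both lay below, where 23.4% did. No member passed limma after Benjamini-Hochberg adjustment over the 11595 rows tested: 0 of 10 were called at an adjusted p under 0.05, where 0.181% of rows were called higher and 0.164% lower. Without adjustment, 5 members were higher with a p under 0.05 (9.64% of all rows) and 1 was lower (7.08%). The authors' deposited table gave 4 of the 10 a q under 0.05, all higher in dKO, against 1.71% of the rows tested, and 3 of them, S100a4, S100a6 and Lgals1, are in the authors' list of higher genes. The median difference of the members was 0.29 on the log2(FPKM + 1) scale, and that of all rows tested was 0.01. The members were chosen with earlier results of these data known. Their counts and median therefore describe the set beside all rows and test nothing about it.

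**Figure D1:**
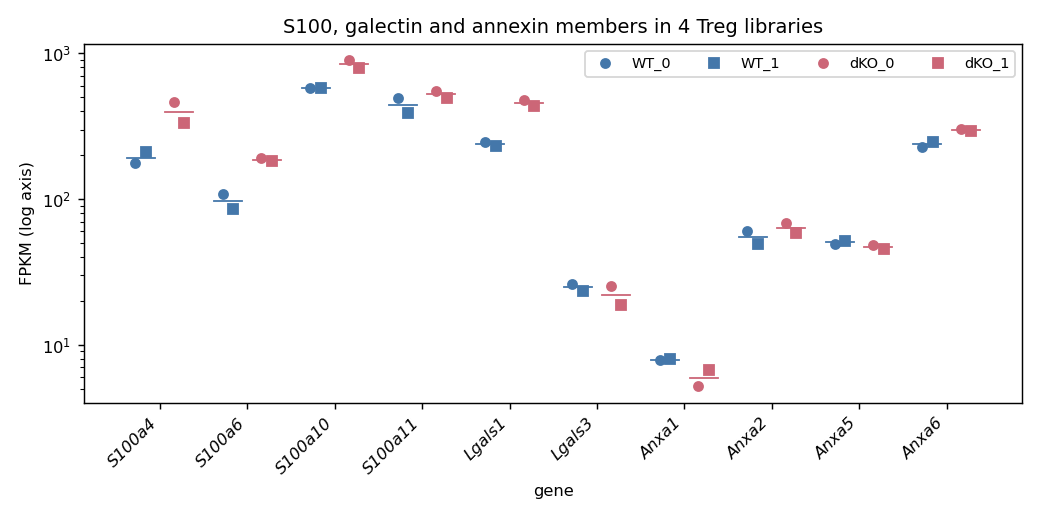
FPKM (log axis) of the 10 genes in each library, with circles for the libraries with suffix 0, squares for suffix 1, blue for WT and red for dKO, and a line at each group's mean. S100a4, S100a6, S100a10 and Lgals1 have both dKO points well above both WT points, while those of Anxa2 and Lgals3 overlap.

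The S100 genes include the most abundant of the set, S100a10 and S100a11, and all 4 lie on mouse chromosome 3. S100a4 (ENSMUSG00000001020, GRCm38 chr3:90603771-90606045, plus strand) and S100a6 (ENSMUSG00000001025, chr3:90612882-90624181, plus strand) start 9.1 kb apart. S100a11 (ENSMUSG00000027907, chr3:93520488-93526287, plus strand) and S100a10 (ENSMUSG00000041959, chr3:93555080-93564643, plus strand) start 34.6 kb apart and 2.91 Mb further along. The 250 bases before the RefSeq start sites (GRCm38.p6) are printed for S100a4 and S100a6, the neighbours with the largest S100 differences, and for S100a11, whose difference was smaller. Capitals mark TATAAA, the TATA box core, and CTTTGA, a core of the site that Tcf1 and Lef1 bind. They run 5′ to 3′ on the plus strand, S100a4 over chr3:90603520-90603769, S100a6 over chr3:90612644-90612893 and S100a11 over chr3:93520246-93520495.
S100a4: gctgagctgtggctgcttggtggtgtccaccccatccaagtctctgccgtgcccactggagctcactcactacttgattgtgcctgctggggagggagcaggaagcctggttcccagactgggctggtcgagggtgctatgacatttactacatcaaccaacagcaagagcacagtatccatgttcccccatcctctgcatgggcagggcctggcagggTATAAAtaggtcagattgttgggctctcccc
S100a6: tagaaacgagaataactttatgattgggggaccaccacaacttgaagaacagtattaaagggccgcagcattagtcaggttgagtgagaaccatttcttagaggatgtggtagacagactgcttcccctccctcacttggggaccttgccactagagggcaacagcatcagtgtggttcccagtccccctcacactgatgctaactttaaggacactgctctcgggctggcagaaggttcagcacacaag
S100a11: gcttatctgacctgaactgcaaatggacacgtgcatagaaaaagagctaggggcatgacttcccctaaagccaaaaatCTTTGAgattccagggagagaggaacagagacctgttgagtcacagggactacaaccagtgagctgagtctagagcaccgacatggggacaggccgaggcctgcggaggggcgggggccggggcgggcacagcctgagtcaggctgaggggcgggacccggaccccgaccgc

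S100a4 has a TATAAA that starts 31 bases before its start site, S100a6 has neither motif, and S100a11 has a CTTTGA 172 bases before its start. Promoter windows from 250 bases before to 50 after the start were on hand for 7 of the 10 genes. CTTTGA, read on both strands, occurred in that of S100a11 alone. TATAAA occurred in those of S100a4, Anxa1 and Anxa2 only, in Anxa2 starting 17 bases before the start. Of 32851 RefSeq windows of that length, 16.0% hold CTTTGA and 13.6% hold TATAAA, the latter also read on both strands. The motifs do not overlap in these windows.

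S100a4 encodes a protein that binds non-muscle myosin and is known for its part in cell motility. The WT libraries had 176.5 and 208.9 FPKM and the dKO libraries 461.1 and 333.9. Both dKO libraries were above both WT libraries, but dKO_0 stood well above dKO_1, so the dKO mean of 397.5 ± 89.9 FPKM (SD, n = 2) had the largest SD of the set. The WT mean was 192.7 ± 22.9 FPKM (SD, n = 2), which made dKO 2.06 times WT. On the log2 scale the difference of 1.03 had an SE of 0.187 and a limma adjusted p = 0.145, and in the authors' deposited table the q was 0.00365. Of the 50-base stretches of its longest transcript, 56.3% also occur in Gm42674, an annotated gene that overlaps it on the same strand. The reads of the 2 cannot be fully told apart, and Gm42674 has no row among the deposited genes.

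S100a6 encodes calcyclin, a protein of dividing and stimulated cells. Its levels were 107.7 and 85.1 FPKM in the WT libraries and 190.4 and 182.1 in the dKO libraries. The dKO libraries were close to each other and both far above the WT pair. The WT mean was 96.4 ± 16.0 FPKM (SD, n = 2) and the dKO mean 186.3 ± 5.83 (SD, n = 2), 1.93 times WT. The difference of 0.95 on the log2 scale had an SE of 0.128 and a limma adjusted p = 0.107, with a q of 0.00365 in the authors' deposited table. With the 224 small RNA rows left out of the fit, its adjusted p was 0.0307 by limma, which is a call. With the column suffix as a replicate block the limma adjusted p was 0.233. Without dKO_0 and without dKO_1 the adjusted p was 0.564 and 0.579, in a range over all its alternatives of 0.0307 to 0.579.

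S100a10 encodes p11, which pairs with annexin A2 and, unlike most of its family, holds its active shape without calcium. With 576.6 and 574.4 FPKM in WT_0 and WT_1, it was the most abundant of the 10 and ranked 141 of all rows tested by mean level. In dKO_0 and dKO_1 it had 896.1 and 799.6 FPKM. The WT libraries were nearly equal and both dKO libraries were higher, by 1.47 times in the mean. The log2 difference of 0.56 had an SE of 0.0883 and a limma adjusted p = 0.124, and with small RNA rows left out the adjusted p was 0.0421, in a range of 0.0421 to 0.576 over all alternatives. The authors' deposited table gave a q of 0.0154, but the gene is not in their list of higher genes.

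S100a11, whose protein binds annexin A1 and annexin A2, had 495.2 and 390.8 FPKM in WT_0 and WT_1 and 552.5 and 495.5 in dKO_0 and dKO_1. The lower dKO library thus sat at the level of WT_0, and only WT_1 stood apart. The log2 difference of 0.25 (95% interval -0.14 to 0.63, limma adjusted p = 0.445) did not pass, and was 0.08 without WT_1 against 0.42 without WT_0. Of its transcript's 50-base stretches, 41.1% also occur in 3 other annotated genes, Gm12854, Gm7665 and Gm29240, so some of its reads may be shared with those copies. None of those copies has a row among the deposited genes.

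**Figure D2:**
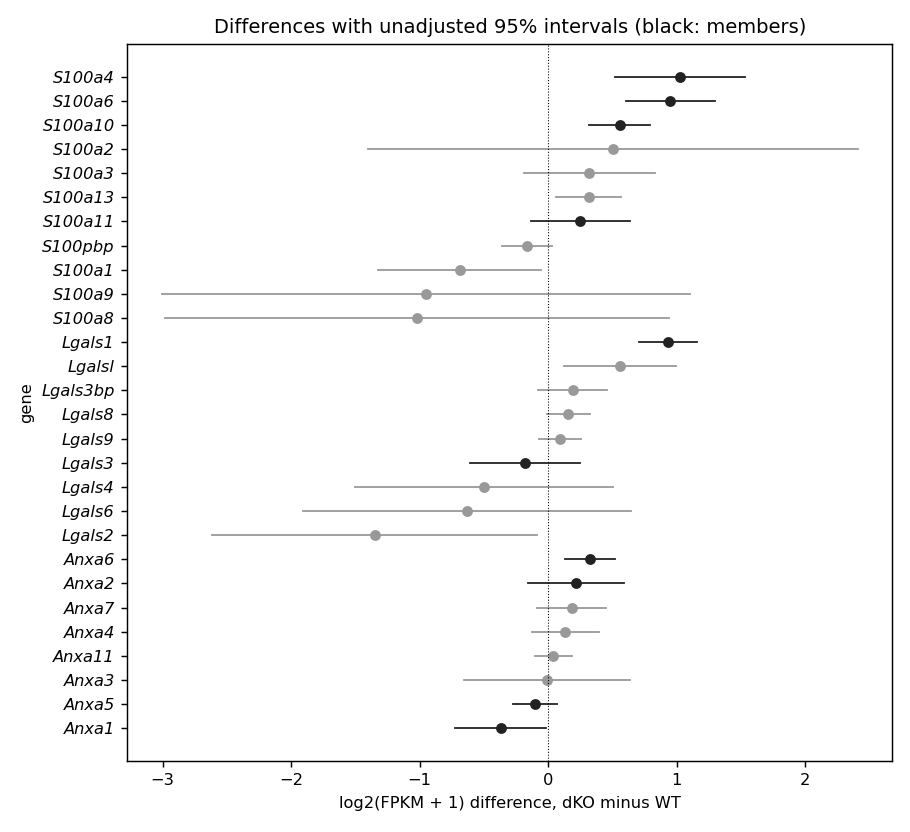
Difference in log2(FPKM + 1), dKO minus WT, for each tested S100, galectin and annexin gene (points), with the unadjusted 95% interval of the limma fit (lines), black for the 10 members and grey for other genes of the families. S100a4, S100a6 and Lgals1 lie near 1, S100a10 at 0.56, and the intervals of S100a8 and S100a9 reach from about -3.0 to about 1.

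Of the 14 other genes with S100 names, which include the S100-binding protein gene S100pbp, 7 passed the filter of 1 FPKM in at least 2 libraries, and limma called 0 of them. S100a13 was higher and S100a1 lower at an unadjusted p under 0.05, as were 9.64% and 7.08% of all rows tested. S100a13, which takes part in the release of growth factors that lack a signal peptide, had 62.5 and 55.0 FPKM in WT and 77.0 and 69.6 in dKO. Its groups did not overlap, at a log2 difference of 0.31 and a limma adjusted p = 0.237. S100a1 was at 8.05 and 4.80 FPKM in WT and 3.39 and 3.62 in dKO, the other way. S100a5, which lies between S100a4 and S100a6, was listed at 0 in 3 libraries and at 1.14 FPKM in dKO_1. S100a3, just upstream of S100a4, had 1.05, 0.952, 1.88 and 1.17 FPKM in WT_0, WT_1, dKO_0 and dKO_1. S100a2, which overlaps the annotated span of S100a3, was listed at 0 in WT_0 and had 2.13, 2.81 and 0.654 FPKM in WT_1, dKO_0 and dKO_1. None of these 3 neighbours came near the level of S100a4. In the whole stretch from S100a1 to S100a10 (chr3:90511034-93564643, 3.05 Mb), 70 annotated genes were in the table and 11 passed the filter. Of the 11, 7 had a higher dKO mean, and limma called 0. Left unadjusted, 4 were higher and 1 lower with a p under 0.05, against 9.64% and 7.08% of all rows tested. The 4 include the members S100a4, S100a6 and S100a10.

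S100a8 and S100a9, which encode the subunits of calprotectin, the abundant calcium- and zinc-binding protein of neutrophils, had another pattern across the libraries. S100a8 had 153.1 FPKM in WT_0 and 35.3, 30.9 and 41.7 in WT_1, dKO_0 and dKO_1. S100a9 had 126.6 FPKM in WT_0 and 30.3, 22.7 and 44.3 in the other libraries. Only WT_0 stood apart, and WT_1 lay within the dKO range for both genes. The log2 difference of S100a8 was -1.02 with all libraries (limma adjusted p = 0.524) and 0.02 without WT_0, and that of S100a9 was -0.95 (adjusted p = 0.569) and 0.07 without WT_0. Of the 9 neutrophil markers tested, the 6 granule genes Ngp, Camp, Ltf, Lcn2, Mpo and Elane were also highest in WT_0. Ngp had 54.4 FPKM there and 13.7, 10.7 and 18.2 elsewhere, and Camp had 33.0 against 11.4, 7.66 and 9.78. The other markers were not highest in WT_0. Retnlg had 0.723 and 0.598 FPKM in WT and 1.18 and 2.02 in dKO, Csf3r and the untested Mmp8 were highest in WT_1, and Cxcr2 stayed between 2.16 and 2.50 FPKM. Over the tested list, the median log2 difference went from -0.93 to -0.01 without WT_0. The part of neutrophil RNA in these values was not tested. Among the S100 members, S100a4 was lowest in WT_0, S100a6 and S100a11 were higher in WT_0 than in WT_1, and S100a10 was nearly equal in both. Without WT_0 the log2 differences of S100a4, S100a6, S100a10 and S100a11 were 0.91, 1.12, 0.56 and 0.42.

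**Figure D3:**
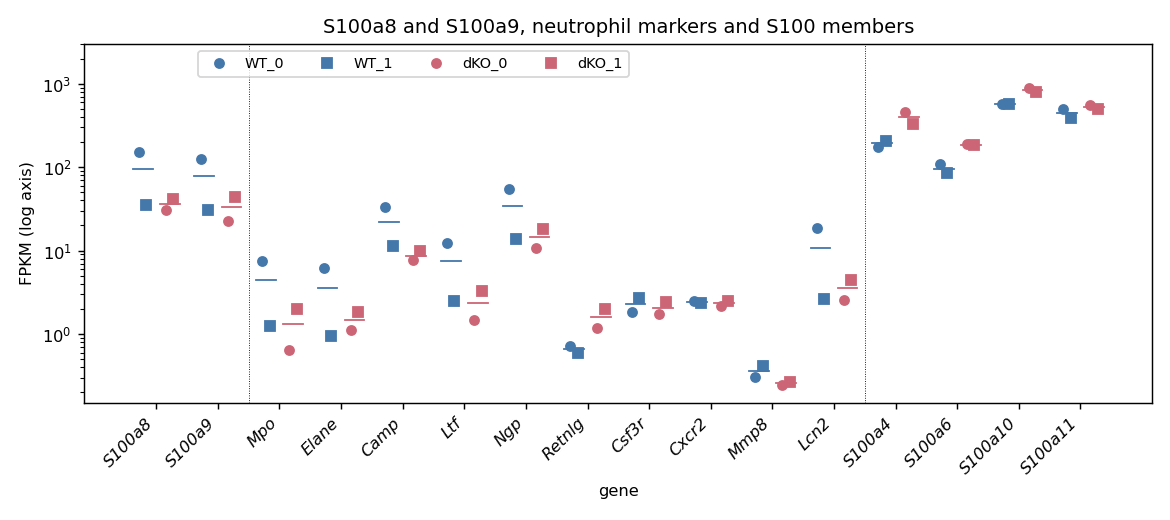
FPKM (log axis) by library for S100a8 and S100a9 (left), 10 neutrophil markers (middle) and the 4 S100 members (right), with symbols as for the members and a line at each group's mean. The blue circle of WT_0 is above all other points for S100a8, S100a9 and 6 of the 10 markers, and for none of the 4 S100 members.

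Lgals1 had the smallest p of the 10. Galectin-1, its product, crosslinks glycoproteins on the surface of T cells. The gene (ENSMUSG00000068220, chr15:78926725-78930465, plus strand) stood at 246.3 and 230.8 FPKM in the WT libraries and at 479.4 and 433.5 in the dKO libraries. The 2 libraries of each group were close and the groups far apart. The dKO mean of 456.4 ± 32.4 FPKM (SD, n = 2) was 1.91 times the WT mean of 238.6 ± 11.01 (SD, n = 2). The log2 difference of 0.93, with an SE of 0.0831, was just outside the threshold (limma adjusted p = 0.0566) and ranked 132 of the 11595 rows from the highest. With small RNA rows left out the adjusted p was 0.0111, and its 13 alternatives ranged from 0.0111 to 0.376. None of the 50-base stretches of its longest transcript occurs in another annotated gene, its pseudogenes included.

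Lgals3 did not follow Lgals1. Galectin-3, its product, joins a sugar-binding domain to a long flexible tail and is abundant in macrophages. The gene (ENSMUSG00000050335, chr14:47367751-47386160, plus strand) had 26.3 and 23.4 FPKM in WT_0 and WT_1 and 25.2 and 18.8 in dKO_0 and dKO_1. The groups overlapped, and the log2 difference of -0.18 (95% interval -0.61 to 0.25, limma adjusted p = 0.602) turned to 0.02 without dKO_1. The ratio of Lgals1 to Lgals3 in FPKM was 9.36 and 9.88 in the WT libraries and 19.0 and 23.1 in the dKO libraries. The macrophage marker sum, given above, was also lower in dKO_0 and dKO_1 than in either WT library, and its part in the level of Lgals3 was not tested.

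Of the 9 other galectin names, which include the ligand gene Lgals3bp, 7 were tested and limma called 0. Lgalsl was higher and Lgals2 lower at an unadjusted p under 0.05, as were 9.64% and 7.08% of all rows tested. Lgals9, of a galectin that binds the receptor Tim-3, was the most abundant galectin after Lgals1, with a WT mean of 89.5 ± 4.32 FPKM and a dKO mean of 95.4 ± 0.563 (SD, n = 2 for both) and a log2 difference of 0.09 (limma adjusted p = 0.501). Lgalsl, a galectin-like gene, had 3.40 and 2.36 FPKM in WT and 4.77 and 4.56 in dKO. Lgals2 had 8.15 and 2.70 FPKM in WT and 1.54 and 1.05 in dKO, for a log2 difference of -1.35 (limma adjusted p = 0.277) that was -0.70 without WT_0. Lgals4 and Lgals6, near-identical genes whose reads may be split between them, had overlapping groups.

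The 4 annexin genes differed in direction, with log2 differences from -0.37 to 0.32. Anxa6 (ENSMUSG00000018340, chr11:54979108-55033445, minus strand) encodes the longest annexin of the family and was the most abundant annexin here, with 228.6 and 247.3 FPKM in WT_0 and WT_1 and 304.3 and 291.4 in dKO_0 and dKO_1. Its groups did not overlap and its mean was 1.25 times WT, a log2 difference of 0.32 with an SE of 0.0718 and a limma adjusted p = 0.171. Anxa2 (ENSMUSG00000032231, chr9:69453620-69491795, plus strand), whose protein forms a complex with the product of S100a10, had 60.2 and 48.9 FPKM in WT and 68.8 and 58.4 in dKO. Its groups overlapped, and the log2 difference was 0.22 (95% interval -0.15 to 0.59, limma adjusted p = 0.481) and 0.07 without WT_1. In every library S100a10 exceeded Anxa2 per length, by 9.57 and 11.8 times in WT and 13.03 and 13.7 times in dKO.

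Anxa5 and Anxa1 had lower dKO values. Anxa5 (ENSMUSG00000027712, chr3:36448923-36475894, minus strand) encodes the annexin used to detect phosphatidylserine on dying cells, and had 49.5 and 51.5 FPKM in WT and 48.4 and 45.5 in dKO. Its log2 difference of -0.10 was the smallest of the 10, and its 95% interval ran from -0.27 to 0.07 (limma adjusted p = 0.469). Anxa1 (ENSMUSG00000024659, chr19:20373428-20390944, minus strand), whose protein acts on formyl peptide receptors and dampens inflammation, was the least abundant, with 7.85 and 7.98 FPKM in WT and 5.18 and 6.71 in dKO. Both dKO libraries were lower, with dKO_0 the lowest, and the log2 difference of -0.37 had an SE of 0.131 and a limma adjusted p = 0.283. Macrophage markers were also lower in dKO, in 19 of 20 genes with a median log2 difference of -0.38, and their part in Anxa1 and Anxa5 was not tested. The 250 bases before the RefSeq start of Anxa1, on the minus strand over chr19:20390672-20390921, are printed below. That RefSeq start lies inside the GENCODE span given above, as do the printed bases. Anxa1 was chosen because it was lower in dKO and S100a4 higher, while both hold TATAAA (capitals) at nearly the same place. In Anxa1 the motif starts 32 bases before the RefSeq start.
Anxa1: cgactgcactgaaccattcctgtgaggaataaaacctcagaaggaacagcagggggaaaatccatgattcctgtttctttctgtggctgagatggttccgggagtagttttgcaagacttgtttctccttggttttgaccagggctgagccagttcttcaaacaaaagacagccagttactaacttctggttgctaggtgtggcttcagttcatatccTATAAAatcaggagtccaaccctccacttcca

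**Figure D4:**
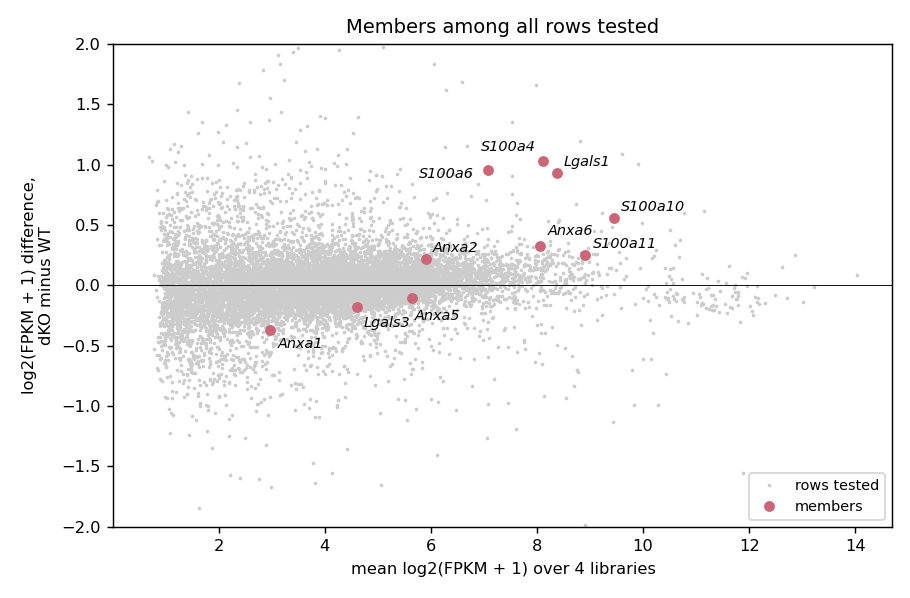
Difference in log2(FPKM + 1), dKO minus WT, against the mean log2(FPKM + 1) over the 4 libraries, for all rows tested (grey) and the 10 members (red). S100a4, S100a6, Lgals1 and S100a10 lie at the upper edge of rows of like abundance, the other members nearer to 0, and 81 rows with a difference beyond 2 are outside the plotted range.

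Of the 8 other annexin genes, 4 were tested, and the count was 0 both for limma calls and for unadjusted p-values under 0.05. Anxa11 was the most abundant of them, at 67.1 and 65.7 FPKM in WT and 67.9 and 68.8 in dKO, and its log2 difference of 0.04 was small (adjusted p = 0.720). Anxa7 and Anxa4 had means of 20.3 and 7.56 FPKM in WT and 23.1 and 8.39 in dKO. Anxa8 and Anxa10 were listed at 0 in every library.

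By level per length, the order in WT was S100a10, S100a11, then Lgals1 and Anxa6, then S100a4, S100a6, Anxa2 and Anxa5, Lgals3 and Anxa1. The WT values of Lgals1 and Anxa6 overlapped, and so did those of Anxa2 and Anxa5. In dKO, S100a4 stood above Anxa6, and its values overlapped those of Lgals1. Together the 10 genes made up 0.265% and 0.252% of the summed FPKM in WT_0 and WT_1 and 0.407% and 0.370% in dKO_0 and dKO_1. Most of that was the S100 members, at 0.182% and 0.170% in WT and 0.282% and 0.251% in dKO.

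Partner genes were taken from a list of 19 that bind or act with S100 proteins and annexins, of which 14 were tested. Limma called 0 of them. Without adjustment, 3 were higher and 1 was lower with a p under 0.05, against 9.64% and 7.08% of all rows tested. The median log2 difference of the list was 0.04. Vim, of the intermediate filament vimentin, had 278.8 and 280.9 FPKM in WT and 404.6 and 403.5 in dKO, a log2 difference of 0.53 (limma adjusted p = 0.0823, and 0.0229 with small RNA rows left out, in a range of 0.0229 to 0.579). Ahnak encodes a giant protein anchored by the S100A10 and annexin A2 complex. It had 46.4 and 66.3 FPKM in WT and 81.8 and 85.9 in dKO. Its log2 difference of 0.59 (limma adjusted p = 0.247) was 0.84 without WT_1 and 0.33 without WT_0. Cacybp, of the calcyclin-binding protein that S100A6 contacts, had 72.0 and 84.1 FPKM in WT and 60.6 and 46.9 in dKO, opposite to S100a6. Sugt1, whose protein is another S100A6 ligand, had 29.6 and 25.3 FPKM against 33.7 and 35.9. Myh9, the myosin heavy chain that S100A4 binds, had 387.1 and 405.4 FPKM in WT and 370.6 and 387.1 in dKO, and Fpr1 and Fpr2, the annexin A1 receptor genes, stayed under 2 FPKM in all 4 libraries.

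Glycoproteins that galectins bind, and enzymes that build their sugars, formed a list of 21 genes, all tested. Limma called 0. Without adjustment, 4 were higher and 2 lower with a p under 0.05, against 9.64% and 7.08% of all rows tested. The median log2 difference was 0.02. Itgb1, the integrin beta 1 chain, had 149.4 and 160.3 FPKM in WT and 254.6 and 243.7 in dKO, a log2 difference of 0.68 (limma adjusted p = 0.0664, and 0.0176 with small RNA rows left out, in a range of 0.0176 to 0.487). Cd7, a galectin-1 receptor on human T cells, had 33.8 and 38.1 FPKM against 61.7 and 52.1 (log2 difference 0.65, limma adjusted p = 0.135). Mgat5, of the enzyme that adds the branch on N-glycans that galectins favour, had 15.3 and 15.2 FPKM in WT and 10.6 and 12.1 in dKO, a log2 difference of -0.40 (limma adjusted p = 0.168). Cd2, an adhesion receptor of T cells, had 521.9 and 502.3 FPKM against 615.0 and 609.7. The groups did not overlap in these 4 genes, which were picked from the list by lowest p-value. Of the 21, 8 had both dKO libraries above both WT libraries, where 27.8% of all rows tested did. In 6 both lay below, where 23.4% did.

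When small RNA rows were left out, limma called 3 of the 10 members, S100a6, S100a10 and Lgals1, all higher, against 1.13% of the 11371 rows in that fit, and 0 lower, against 0.51%. S100a4 was at an adjusted p = 0.0520 there, and between 0.0520 and 0.563 in all alternatives. The direction of 9 members was the same in each of the 13 alternative settings, and Lgals3 changed sign in 1 of them. Settings that change only the rows fitted, the trend or a replicate block cannot move a difference. Only the pseudocount, the normalizations and the left-out libraries could. B cell markers were lowest in WT_1, as were 5 of the 10 members, S100a6, S100a10, S100a11, Lgals1 and Anxa2. Without WT_1 the median difference of the B cell list was 0.10 and that of the members 0.23, and the part of B cell RNA was not tested.

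**Figure D5:**
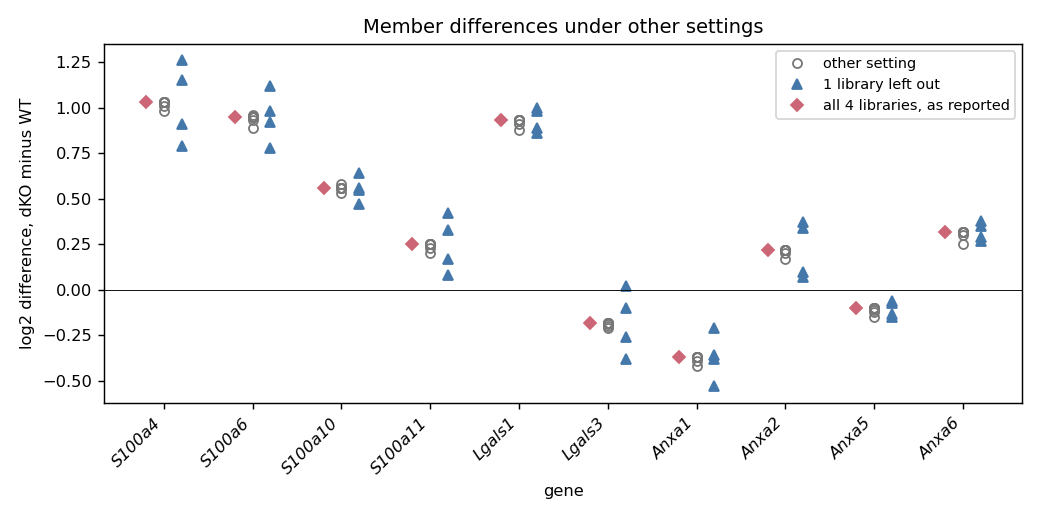
Log2 difference, dKO minus WT, of each member with all 4 libraries (red diamonds), with 1 library left out (blue triangles) and under the other alternative settings (grey circles). S100a4 spreads most when libraries are left out, from 0.79 to 1.26, Lgals1 runs from 0.86 to 1.0, and Lgals3 crosses 0 in 1 case.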

How the data were processed

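Per the submitters' processing notes, the authors worked with TopHat2 2.1.0 and Cuffdiff 2.2.1, on mm10. Annotation, strand setting and read filters: not given in the sources used here. Deposited by the authors were FPKM per library and per group mean, with the authors' log2 fold changes, p-values and q-values. For transcripts as short as those of the S100 genes, FPKM depends on the effective length assumed.

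Library columns end in 0 and 1 while titles number from 1, so each column was tied to its group only. The test was limma 3.58.1 (R 4.3.3) on log2(FPKM + 1), with an intensity trend, two-sided, unblocked and Benjamini-Hochberg adjusted, over the 11595 rows with at least 1 FPKM in at least 2 of 4 libraries. The call threshold was an adjusted p of 0.05. The fit has 2 residual and 2.31 prior degrees of freedom. The pseudocount understates changes of low genes. Depth was estimated from the steps between low FPKM values, with the length of genes with a single annotated transcript setting the scale. Positions are from GENCODE M21 (GRCm38), and promoters from RefSeq. Shared sequence was counted as exact 50-base matches among GENCODE transcripts.

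The members and lists were chosen with earlier results of these data known. The 10 members are given in full, partner lists by the 4 lowest p-values, and Myh9, Fpr1 and Fpr2 were named in addition after their values were seen, as were the markers given singly. Small RNA rows are those of annotated snoRNA, miRNA, snRNA and like types, or with such names.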

Additional observations from a re-analysis of the deposited data

How the results depend on the processing

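The number of rows called by limma, 40 of 11595, was 16 with no filter on low values and 186 with small RNA rows left out, and it was 98 or 118 when WT_0 or WT_1 was left out and 8 or 10 when dKO_0 or dKO_1 was. With 1 library left in a group, that library is assumed to vary like the others. Of the members, 0 were called higher in the fit as reported, 3 with small RNA rows left out, and 0 to 1 with a library left out. The members' median log2 difference of 0.29 lay between 0.23 and 0.39 with a library left out, and the log2 difference of Lgals3 was 0.02 without dKO_1. The causes were not tested. With the column suffix as a replicate block, 7 rows and 0 members were called. The deviations of the libraries with suffix 0 had a correlation of -0.11 over rows, and the crossed pairing, chosen after seeing the data, called 22 rows. The suffixes are only numbers, so neither block is taken as a design. A pseudocount of 0.1, a filter at 5 FPKM, quantile normalization, median centring and no trend left the members' calls at 0. The 95% intervals of S100a11, Lgals3, Anxa2 and Anxa5 include 0.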
